A study of Mus musculus with 12 samples.

Results

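The receptors, kinases and adaptors through which mouse cells sense double-stranded RNA were followed in liver immune cells: 9 genes of the 24319 entries in the deposited expression table. They were chosen by name, as the sensors of polyIC and the proteins that pass its signal on, and each symbol matched 1 entry. All 9 passed the filter on low values and were among the 11978 genes tested. RNA came from CD45-positive cells captured with antibody and magnetic beads from the livers of C57BL/6 mice. Every group, controls included, had received human c-Myc and N-ras by hydrodynamic injection, a rapid large-volume delivery of plasmid DNA that reaches hepatocytes, on day 0. There were 4 groups of 3 libraries. Control mice were given PBS on days 14, 16, 18, 20 and 22 and 200 µg of IgG on days 17, 19 and 21. Mice of the polyIC group received polyIC, a synthetic double-stranded RNA, at 4 mg/kg intraperitoneally in place of PBS, with the same IgG. For the antiPDL1 group, IgG was replaced by 200 µg of an antibody that blocks PD-L1, through which cells restrain T cells bearing PD-1, and PBS was kept; the combination group received polyIC and this antibody. Day 24 is given for euthanasia in the treatment protocol and day 22 as the time point in the labels. The labels do not say whether the 3 libraries of a group came from separate mice, so the p-values measure the spread between these libraries.

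Double-stranded RNA is a sign of viral replication, and cells detect it in separate compartments. TLR3, encoded by Tlr3, reads it inside endosomes and signals through the adaptor TRIF (Ticam1). In the cytosol the RIG-I-like receptors RIG-I (Ddx58) and MDA5 (Ifih1) bind it and signal through MAVS, an adaptor on the mitochondrial surface, while LGP2 (Dhx58), the third helicase of the family, lacks the signalling domain and modulates the others. Both routes lead to phosphorylation of IRF3, a transcription factor that switches on interferon beta. PKR (Eif2ak2) is a kinase that stops translation when bound to double-stranded RNA, and ZBP1 recognises nucleic acids in the Z conformation and can trigger necroptosis. Several of these sensors are themselves induced by interferons, while Mavs, Ticam1 and Irf3 are usually expressed at steady levels.

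Values are FPKM, fragments scaled by transcript length and library size, so levels can be compared between genes. Per library, FPKM summed to between 476111 and 677535, and the relative sequencing depth, estimated from the steps between low values, ran from 0.476 to 1 of the deepest library. Control libraries lay at 0.712 to 0.867, polyIC at 0.540 to 0.557, antiPDL1 at 0.476 to 0.746 and combination at 0.633 to 1. A single entry, Mir6236, held 4.97% to 15.7% of the summed FPKM in control and 15.8% to 19.3% with polyIC. It held 7.59% to 11.1% with antiPDL1 and 16.2% to 20.6% in the combination. Ptprc, which encodes CD45, was present in every library, at 206 to 261 FPKM in control, 371 to 416 with polyIC, 268 to 340 with antiPDL1 and 381 to 487 in the combination, where it rose (log2 0.90, adjusted p = 0.00529 in limma). The summed FPKM of 8 hepatocyte markers was 907 to 2820 in control, 1163 to 1679 with polyIC, 245 to 1615 with antiPDL1 and 128 to 243 in the combination, where 7 of the 8 fell. A few libraries resembled another group more than their own in their mean correlation across genes: control replicate 2, antiPDL1 replicate 0 and antiPDL1 replicate 2. The last of these had a mean correlation of 0.952 with the controls and of 0.928 with its own group. The antiPDL1 values of the genes that varied most are given with and without it.

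The 9 genes spanned a wide range of levels. Zbp1 was the highest of the 9 in 12 of 12 libraries, with a mean over all libraries of 168 FPKM. Dhx58 (32.2), Irf3 (29.6), Ddx58 (23.5), Mavs (20.0) and Ifih1 (19.4) followed by mean FPKM, and Eif2ak2 (13.6), Tlr3 (12.8) and Ticam1 (10.6) were lowest. Neighbours in this order were mostly not separated. Dhx58 was above Irf3 in 6 of 12 libraries, Mavs above Ifih1 in 7, Eif2ak2 above Tlr3 in 6 and Tlr3 above Ticam1 in 8. Irf3 was above Ddx58 in 10 and Ifih1 above Eif2ak2 in 11. The genes also differed in how much they varied. The ratio of the highest to the lowest library was 1.55 for Ddx58, 1.82 for Irf3, 1.97 for Eif2ak2 and 1.99 for Ticam1, against 7.01 for Zbp1, 4.17 for Dhx58, 3.77 for Tlr3, 2.90 for Ifih1 and 2.90 for Mavs.

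**Figure D1:**
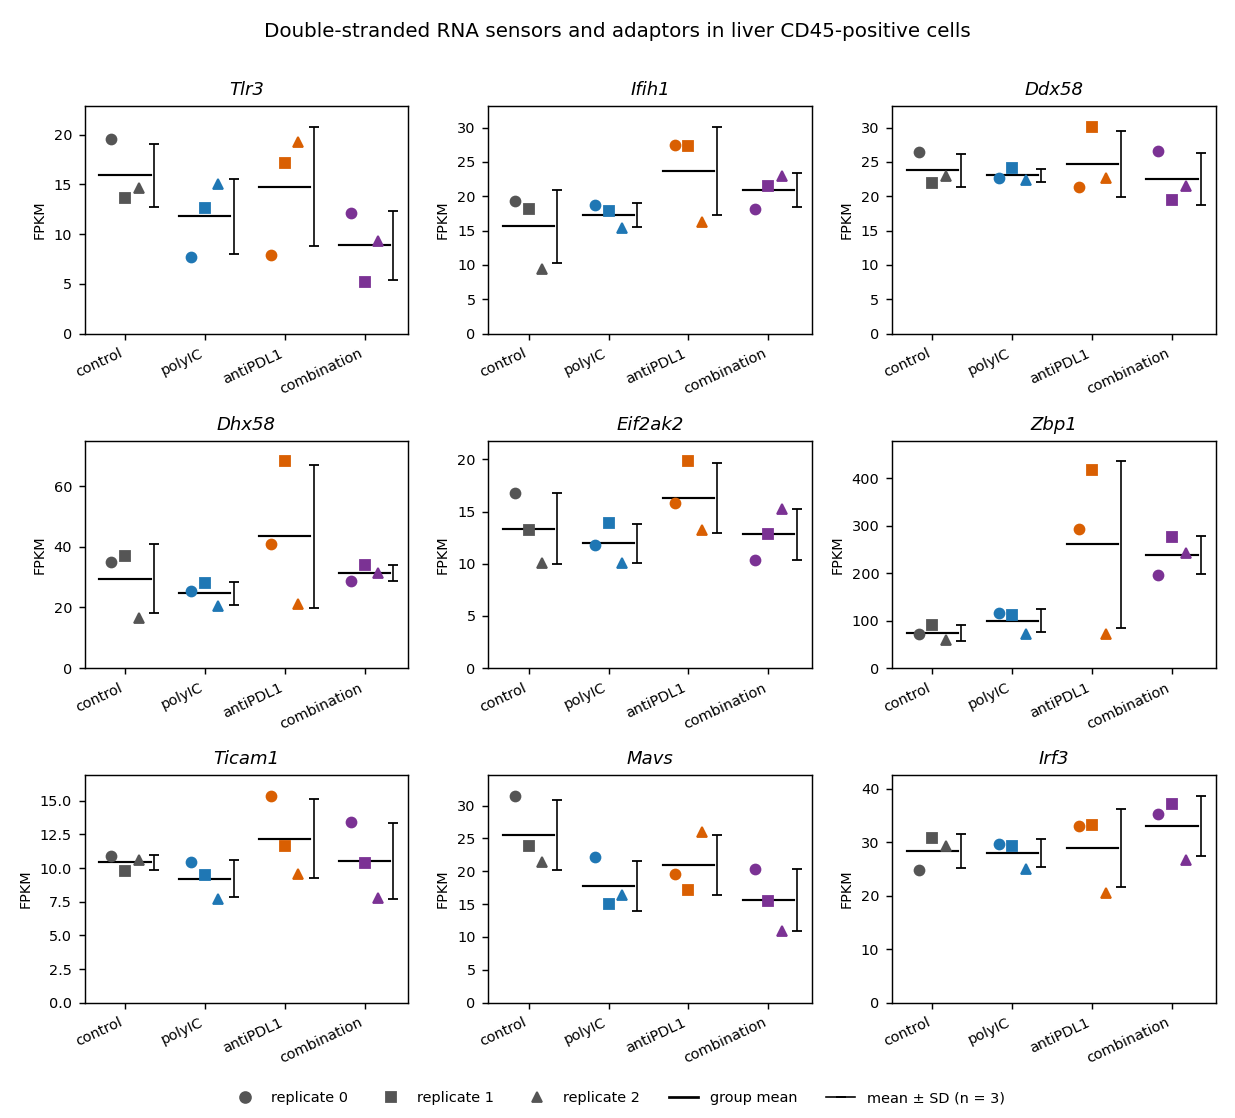
FPKM (y axis, linear from 0) of the 9 genes in the 12 libraries, by group (x axis); points are libraries, horizontal lines group means, and bars the mean ± SD of 3 libraries. Zbp1 stands at 197 to 277 in the combination and at 59.6 to 91.3 in control, and in antiPDL1 it splits into libraries at 293 and 418 and a library at 71.1.

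The first question was whether 5 doses of polyIC left the genes that sense it at another level. With polyIC alone, 0 of the 9 genes passed the limma test (adjusted p under 0.05 over all genes tested) and 0 had an unadjusted p under 0.05, where 3.63% of all genes tested were called and 22.2% had such an unadjusted p. Their median log2 change was -0.13, against -0.01 over all genes. With the PD-L1 antibody alone 0 of 9 passed in limma and 2 had an unadjusted p under 0.05, Ifih1 and Zbp1, beside a background of 0.267% called and 17% at that unadjusted p, and the median was 0.19 against 0.01. In the combination 1 of 9 passed, Zbp1, and 3 had an unadjusted p under 0.05 (Zbp1, Mavs and Tlr3), where 29.4% of all genes were called and 42.6% had such an unadjusted p. The median of the 9 was -0.02, against 0.05 over all genes. The comparisons of single treatments and the combination with control share the 3 control libraries. Against polyIC the combination gave 0 of 9 in limma (1.24% of all genes called), with 1 at an unadjusted p under 0.05 (13.6% of all genes), and against antiPDL1 it gave 0 of 9 (0.125%), with 0 at an unadjusted p under 0.05 (14.4%). The interaction, polyIC's effect under the antibody minus its effect under IgG, called 0 of 9 in limma (0.0167%), with 0 at an unadjusted p under 0.05 (2.4% of all genes). By range, the combination libraries did not overlap the controls for 3 of the 9 genes, 2 lower and 1 higher, beside 46% of all genes (25.6% higher, 20.3% lower). They did not overlap polyIC for 2 of 9, both higher (29.5% of all genes, 13.3% higher). No gene of the 9 was separated in polyIC or antiPDL1 against control or in the combination against antiPDL1, where 28.6%, 12.5% and 20.4% of all genes were. Over all genes, 1572 were higher and 1952 lower in the combination than in control, and 2001 and 1649 after quantile normalization. The same rescaling turned 1 higher and 31 lower in antiPDL1 into 4 and 20, and 19 higher and 130 lower in the combination against polyIC into 2 and 1.

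**Figure D2:**
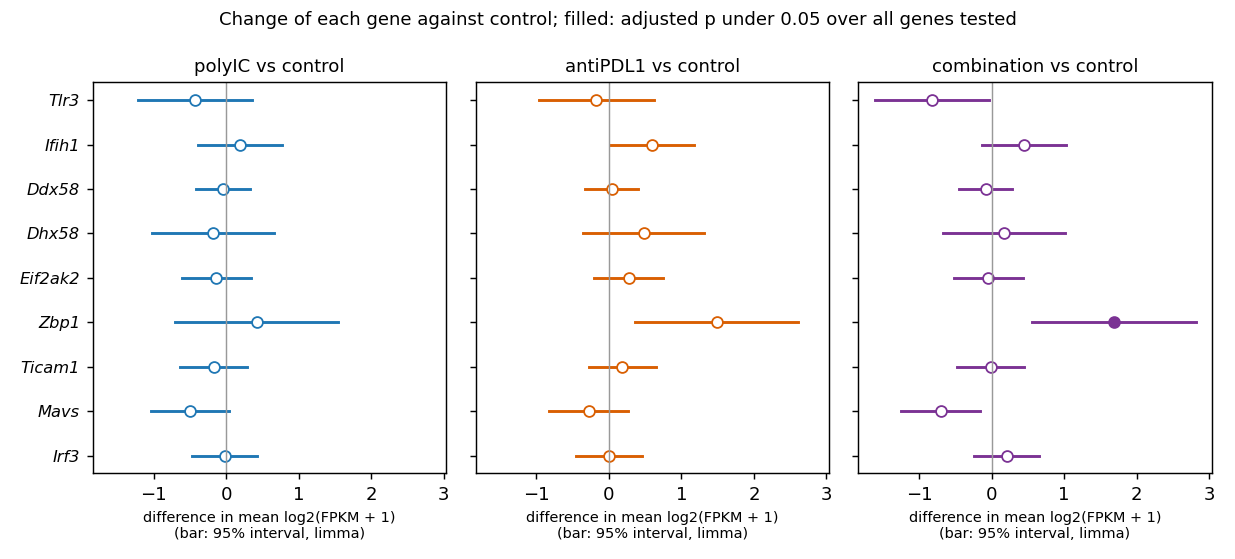
Difference in mean log2(FPKM + 1) from control (x axis) for each gene (y axis) in polyIC, antiPDL1 and the combination; points are limma estimates, bars 95% intervals, and a filled point marks an adjusted p under 0.05. Zbp1 in the combination is the filled point, at 1.69, and the interval of Ddx58 in the combination runs from -0.45 to 0.28.

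Among the receptors, the endosomal sensor Tlr3 had its lowest mean in the combination. Its FPKM was 19.5, 13.6 and 14.6 in the control libraries, 7.69, 12.7 and 15.0 with polyIC, 7.93, 17.1 and 19.3 with antiPDL1, and 12.1, 5.18 and 9.30 in the combination. All 3 combination libraries lay below all 3 controls, as for 20.3% of all genes, while the polyIC and antiPDL1 libraries overlapped the controls. The log2 difference between combination and control was -0.83 (SE 0.36, 95% interval -1.62 to -0.04), and it did not pass in limma (adjusted p = 0.101). With polyIC alone it was -0.43 (95% interval -1.22 to 0.35, adjusted p = 0.501 in limma), and with antiPDL1 alone -0.17 (-0.96 to 0.62, adjusted p = 0.820). The combination difference passed in 0 of 12 runs with 1 library left out and was -0.53 without combination replicate 1 (adjusted p = 0.347 in limma). Of 10 other alternatives it passed in 1, array quality weights, which downweight discordant libraries (-1.22, adjusted p = 0.00757).

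Kupffer cells, cross-presenting dendritic cells and sinusoidal endothelium are known to express Tlr3, and their markers also had low sums in the combination. The summed FPKM of 6 Kupffer cell markers (6 of 6 in the table) was 1402 to 6885 in control, 443 to 1531 with polyIC, 646 to 5047 with antiPDL1 and 48.5 to 198 in the combination. The sum of 6 cross-presenting dendritic cell markers was 387 to 437 in control, 239 to 363 with polyIC, 331 to 505 with antiPDL1 and 241 to 304 in the combination. Irf8 held most of this sum, at 231 to 327 in control and 182 to 199 in the combination. Xcr1 (11.7 to 17.0 and 6.41 to 20.1) and Clec9a (21.4 to 27.3 and 9.71 to 23.2) overlapped between these groups. Of the 6 differences 0 were above 0, and 1 marker passed in limma. The sum of 6 sinusoidal endothelial markers was 150 to 589 in control and 55.1 to 129 in the combination. It was 185 to 197 with polyIC and 166 to 226 with antiPDL1. The sum of 6 B cell markers was 367 to 1041 in control and 70.2 to 144 in the combination. With polyIC that sum was 215 to 349, and with antiPDL1 158 to 383. No marker of these lists was at 0 in any library; Clec4f, the defining Kupffer cell marker, went down to 5.22 FPKM and the endothelial marker Stab2 to 0.781. In bulk RNA, fewer cells of a type and less RNA per cell cannot be told apart, and the part of these cells, and of the Ptprc and hepatocyte marker levels given above, in the Tlr3 values was not tested. The library with the lowest Tlr3, combination replicate 1, also had the lowest Kupffer sum. Within polyIC and within antiPDL1, replicate 0 was lowest in both. In control the order differed: replicate 1 had the lowest Tlr3 (13.6 FPKM) and the highest Kupffer sum (6885). Across groups, combination replicate 0 had a Kupffer sum of 198 and Tlr3 of 12.1, and polyIC replicate 0 had 443 and 7.69.

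**Figure D3:**
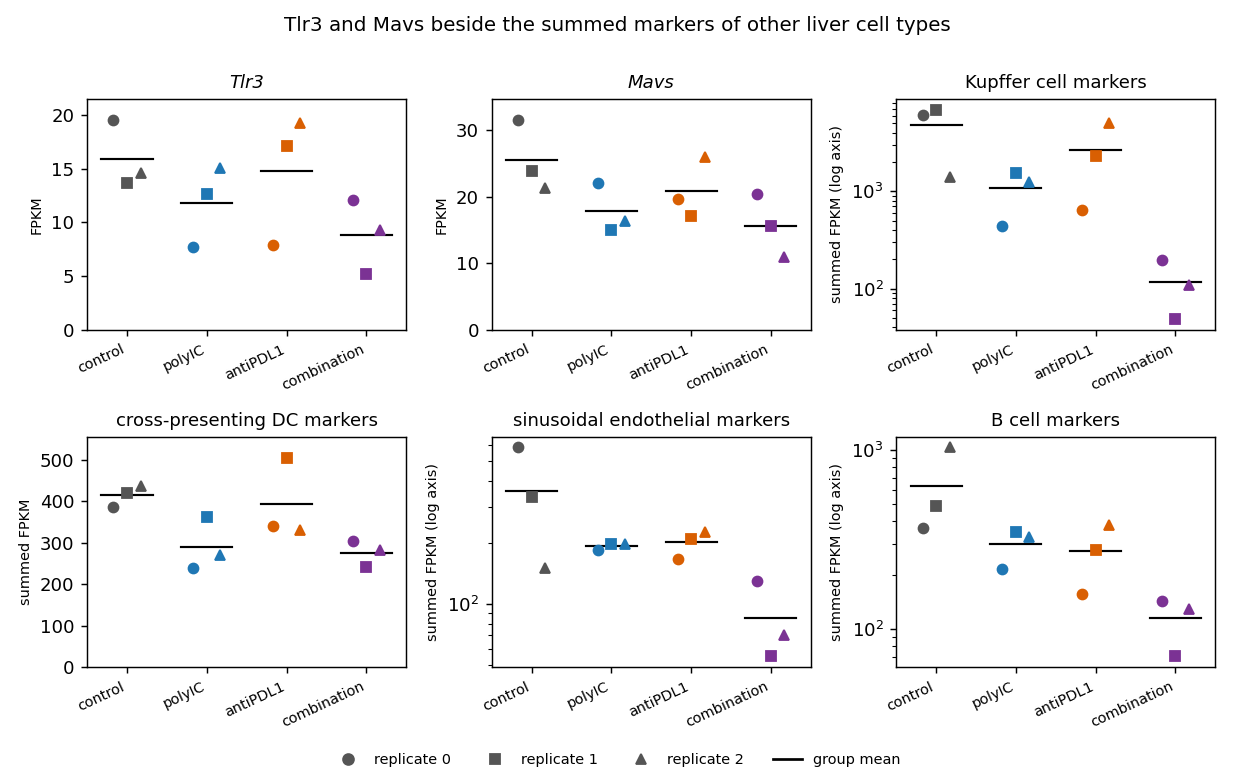
Tlr3 and Mavs (FPKM, linear from 0) and the summed FPKM of markers of 4 other cell types, by group (x axis); the Kupffer, endothelial and B cell panels have a log axis, symbols mark replicates and lines group means. The combination holds the lowest library of Tlr3 (5.18), of Mavs (10.9) and of the Kupffer (48.5), endothelial (55.1) and B cell (70.2) sums, and the lowest dendritic cell sum (239) is a polyIC library.

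The 3 cytosolic helicases differed in how much they varied between libraries. Ifih1 (MDA5), the receptor that binds long double-stranded RNA such as polyIC, stood at 19.3, 18.1 and 9.48 FPKM in control and at 18.7, 17.8 and 15.3 with polyIC. With antiPDL1 it was 27.5, 27.4 and 16.3, and in the combination 18.2, 21.5 and 23.0. The low control was replicate 2 and the low antiPDL1 library was replicate 2, and the groups overlapped in every pairing with control. Its log2 difference was 0.59 with antiPDL1 (95% interval 0.01 to 1.17, adjusted p = 0.291 in limma), 0.19 with polyIC (-0.39 to 0.77, adjusted p = 0.699) and 0.45 in the combination (-0.13 to 1.03, adjusted p = 0.216). Single libraries moved these values: without antiPDL1 replicate 2 the antibody difference was 0.83 and passed (adjusted p = 0.0469 in limma), while without control replicate 2 it was 0.29 (adjusted p = 0.448) and the combination difference was 0.15 (adjusted p = 0.643).

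Ddx58 (RIG-I), which prefers short RNA with a 5′ triphosphate, varied least of the 9. Control libraries gave 26.5, 21.9 and 23.0 FPKM, polyIC 22.7, 24.1 and 22.3, antiPDL1 21.4, 30.1 and 22.6, and combination 26.7, 19.4 and 21.4. Its coefficient of variation over the 12 libraries was 12.5%, the lowest of the 9 genes, which ranged up to 68.8% for Zbp1. The log2 differences from control were -0.04 with polyIC (95% interval -0.41 to 0.33), 0.04 with antiPDL1 (-0.33 to 0.41; -0.03 after quantile normalization) and -0.09 in the combination (-0.45 to 0.28), with limma adjusted p of 0.911, 0.913 and 0.721. On the log2(FPKM + 1) scale, the bound farthest from 0 among these intervals was -0.45.

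Dhx58 (LGP2) was the most variable of the helicases. It was 34.8, 37.1 and 16.3 FPKM in control, 25.4, 28.0 and 20.4 with polyIC, 40.8, 68.2 and 21.2 with antiPDL1, and 28.8, 33.9 and 31.5 in the combination. The highest value came from antiPDL1 replicate 1, and the combination libraries lay above all 3 polyIC libraries, as 13.3% of all genes did. No comparison passed in limma: log2 -0.18 with polyIC (95% interval -1.02 to 0.66, adjusted p = 0.816), 0.48 with antiPDL1 (-0.36 to 1.32, adjusted p = 0.516), 0.17 in the combination against control (-0.67 to 1.01, adjusted p = 0.756; -0.19 without control replicate 2) and 0.35 in the combination against polyIC (-0.49 to 1.19, adjusted p = 0.690). The antiPDL1 difference was 0.90 without antiPDL1 replicate 2 (adjusted p = 0.0797 in limma), 0.08 without antiPDL1 replicate 1 (adjusted p = 0.939) and 0.12 without control replicate 2 (adjusted p = 0.876). The reference annotation has an antisense gene, Dhx58os, across its exons. Antisense or noncoding genes also overlap Tlr3 and Eif2ak2 (Gm45542 and Gm26637). The libraries were made with a stranded kit, but whether the authors' counting used strand is not given in the sources used here, so reads of these 3 genes and of their partners could not be separated.

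The start-site sequences of 3 of these sensors are shown because interferon-induced genes carry a known element, the interferon-stimulated response element, to which the factor ISGF3 binds. RefSeq promoters of 300 bases (250 before and 50 after the start site, build GRCm38.p6, not the mm9 build of the expression table) were at hand for 7 of the 9 genes, not for Zbp1 and Dhx58. Its core, GAAA and again GAAA with any 2 bases between, was searched on both strands and was found in 3 of the 7 and in 3.44% of all 32851 promoters of this length. Each stretch is 30 bases, 5′ to 3′ along the gene, with the core in capitals.
Ifih1, minus strand of chr2:62646206-62646235: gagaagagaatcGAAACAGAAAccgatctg
Ddx58, minus strand of chr4:40239804-40239833: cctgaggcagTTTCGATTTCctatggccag
Eif2ak2, minus strand of chr17:78882535-78882564: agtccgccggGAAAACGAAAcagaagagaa
The core began 33 bases into the Ifih1 transcript, 3 bases into that of Ddx58, where it lies on the opposite strand, and 19 bases into that of Eif2ak2. The core of the gamma activated site, TTCNNNGAA, another known interferon-response element, searched on both strands, was found in 1 of the 7 (Eif2ak2, 178 bases before the start) and in 8.30% of all promoters. A match describes the letters and not the binding of a factor: Ifih1, Ddx58 and Eif2ak2 hold the same core, and their ratios of highest to lowest library were 2.90, 1.55 and 1.97.

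Eif2ak2 (PKR), the kinase sensor, stood at 16.8, 13.2 and 10.1 FPKM in control, 11.8, 13.9 and 10.1 with polyIC, 15.8, 19.8 and 13.2 with antiPDL1, and 10.4, 12.8 and 15.2 in the combination. The 4 groups overlapped throughout. The log2 differences from control were -0.13 with polyIC (95% interval -0.61 to 0.34), 0.28 with antiPDL1 (-0.20 to 0.75) and -0.05 in the combination (-0.52 to 0.43), with limma adjusted p of 0.746, 0.510 and 0.888. The antiPDL1 difference was 0.41 without antiPDL1 replicate 2 and 0.13 without antiPDL1 replicate 1, and from 0.10 to 0.44 over all runs with 1 library left out, none of which passed. Of 9 other genes of the eIF2alpha kinase pathway, 1 rose and 3 fell in the combination, where 29.4% of all genes were called, with a median of -0.01. With single treatments 0 passed, and 4 with polyIC and 2 with antiPDL1 had an unadjusted p under 0.05 in limma, beside 22.2% and 17% of all genes. Eif2s1, which encodes eIF2alpha, the substrate of PKR, rose from 26.1 ± 4.51 to 47.3 ± 8.91 FPKM (SD, n = 3 each; log2 0.83, adjusted p = 0.0170 in limma). Eif2ak3 (PERK), the kinase of the endoplasmic reticulum stress response, fell from 14.1 ± 2.37 to 8.01 ± 1.35 (log2 -0.74, adjusted p = 0.0109). Ppp1r15a (GADD34), a phosphatase subunit that reverses eIF2alpha phosphorylation, fell from 10.3 ± 0.699 to 6.07 ± 0.409 (log2 -0.68, adjusted p = 0.0101), and Eif2ak4 (GCN2), the amino acid sensor, from 4.08 ± 0.333 to 2.65 ± 0.334 (log2 -0.48, adjusted p = 0.0426). Eif2ak3 and Ppp1r15a passed in 12 of 12 runs with 1 library left out, Eif2s1 in 9 and Eif2ak4 in 5.

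Zbp1 carried the largest difference of the 9. The control libraries held 71.1, 91.3 and 59.6 FPKM, polyIC 116, 113 and 71.7, antiPDL1 293, 418 and 71.1, and the combination 197, 277 and 243. All 3 combination libraries lay above all 3 controls, as 25.6% of all genes did, and above all 3 polyIC libraries, as 13.3% did. The library antiPDL1 replicate 2 stood at the control level. Zbp1 rose from 74.0 ± 16.1 in control to 239 ± 40.3 FPKM in the combination (SD, n = 3 each; log2 1.69, SE 0.51, 95% interval 0.56 to 2.81, adjusted p = 0.02995 in limma). That call was lost when any 1 library of the compared groups was left out, with adjusted p of 0.0860, 0.0528 and 0.0653 for control replicates 0, 1 and 2 and of 0.0501, 0.0976 and 0.0753 for the combination libraries in the same order, while the log2 difference stayed between 1.54 and 1.85. It held in the other 6 of 12 such runs.

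With antiPDL1 alone the mean of Zbp1 was 261 ± 175 FPKM, and its log2 difference from control of 1.49 did not pass (95% interval 0.36 to 2.61, adjusted p = 0.220 in limma). Without antiPDL1 replicate 2 it was 2.25, with adjusted p = 0.00151, and without antiPDL1 replicate 1 it was 0.98, with adjusted p = 0.503. With polyIC alone it was 0.42 (-0.70 to 1.55, adjusted p = 0.655). The combination was above polyIC by 1.26 (0.14 to 2.39, adjusted p = 0.295 in limma, and 0.0188 without antiPDL1 replicate 2). It differed from antiPDL1 by 0.20 (-0.93 to 1.32, adjusted p = 0.9002 in limma). Without antiPDL1 replicate 2 alone, the difference from antiPDL1 turned to -0.56. T cell markers were also high in the combination. The summed FPKM of 7 of them was 258 to 768 in control, 1308 to 1850 with polyIC, 580 to 1598 with antiPDL1 and 1939 to 2378 in the combination. By library, the sum was 1598, 666 and 580 in antiPDL1, where Zbp1 was 293, 418 and 71.1. With polyIC the sum was 1850, 1381 and 1308, where Zbp1 was 116, 113 and 71.7. The part of T cells in the Zbp1 values was not tested. No T cell marker of the list was at 0 in any library.

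The proteins that act with ZBP1 and TRIF in cell death did not show calls. Of 6 genes, 0 passed in limma in the combination (29.4% of all genes called) and 0 had an unadjusted p under 0.05 (42.6% of all genes), with a median log2 difference of 0.12 against 0.05 over all genes. Ripk3, the kinase that ZBP1 engages, was 32.2 ± 10.3 FPKM in control and 40.9 ± 6.47 in the combination (log2 0.38, adjusted p = 0.300 in limma). Mlkl, the protein that breaches the membrane in necroptosis, was 20.4 ± 10.9 and 16.1 ± 1.82 (log2 -0.15, adjusted p = 0.817 in limma). Mlkl in antiPDL1 replicate 1 was 49.97 FPKM, the library that was also highest for Zbp1 and Dhx58.

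**Figure D4:**
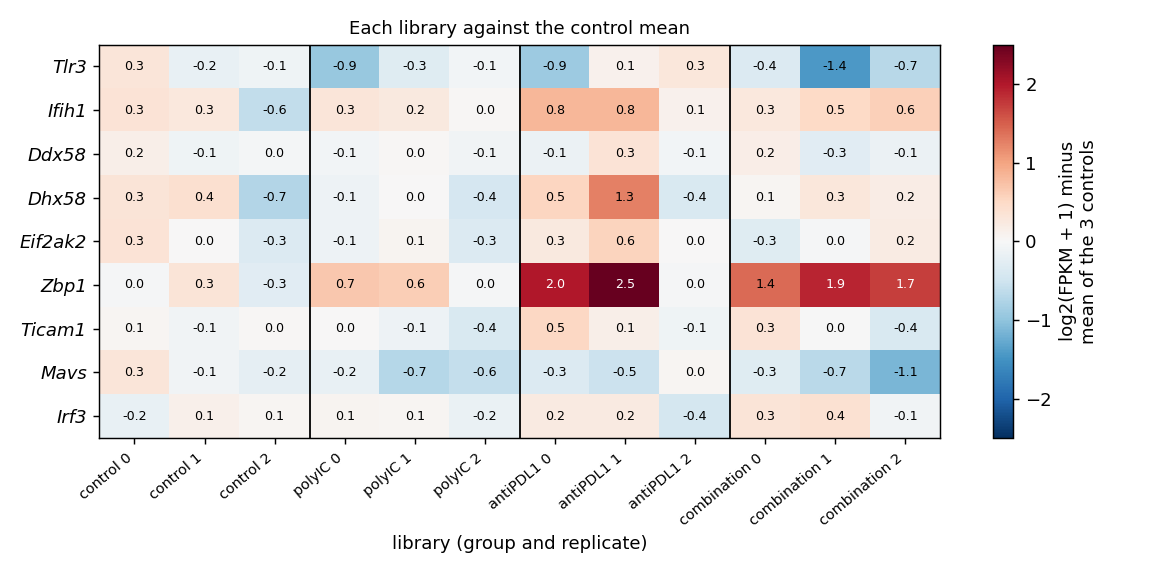
Log2(FPKM + 1) of each gene (y axis) in each library (x axis) minus the mean of the 3 controls; colour and printed values give the difference. Zbp1 is above the control mean by 1.4 to 1.9 in the combination, by 2.0 and 2.5 in antiPDL1 replicates 0 and 1 and by 0.0 in replicate 2, where Dhx58 and Irf3 are below it by 0.4.

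Among the adaptors, Mavs had lower means in every treated group. Its FPKM was 31.5, 23.8 and 21.4 in control, 22.1, 15.0 and 16.3 with polyIC, 19.6, 17.1 and 26.0 with antiPDL1, and 20.3, 15.5 and 10.9 in the combination. All 3 combination libraries lay below all 3 controls, as 20.3% of all genes did, and the other groups overlapped the controls. The log2 difference was -0.70 in the combination (SE 0.25, 95% interval -1.24 to -0.16) and missed the threshold with adjusted p = 0.0525 in limma. It passed in 5 of 10 other settings, among them quantile normalization (-0.78, adjusted p = 0.0394) and median-of-ratios rescaling (-0.76, adjusted p = 0.0387). With 1 library left out it passed in 3 of 12 runs, without control replicate 2 (-0.82, adjusted p = 0.0412), antiPDL1 replicate 2 (adjusted p = 0.0370) or combination replicate 0 (-0.90, adjusted p = 0.0301). In the other runs adjusted p went up to 0.197 (without control replicate 0), and the difference was smallest without combination replicate 2, at -0.48 (adjusted p = 0.178). The Kupffer, endothelial, B cell and hepatocyte sums were also low, and Ptprc high, in the combination, and their part in the Mavs values was not tested. With polyIC alone the difference in Mavs was -0.50 (-1.04 to 0.04, adjusted p = 0.260) and with antiPDL1 alone -0.28 (-0.82 to 0.26, adjusted p = 0.557).

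Ticam1 (TRIF) was 10.9, 9.81 and 10.6 FPKM in control, 10.5, 9.46 and 7.74 with polyIC, 15.4, 11.7 and 9.55 with antiPDL1, and 13.4, 10.4 and 7.75 in the combination. The groups overlapped, and the control libraries were closer together than those of any treated group. The log2 differences from control were -0.17, 0.19 and -0.02 (0.01 after quantile normalization), with limma adjusted p of 0.663, 0.645 and 0.959. The interval in the combination ran from -0.48 to 0.44.

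Irf3, the transcription factor on which both routes converge, was 24.8, 30.8 and 29.4 FPKM in control, 29.7, 29.2 and 24.96 with polyIC, 33.0, 33.2 and 20.4 with antiPDL1, and 35.3, 37.2 and 26.7 in the combination. The lowest library of all was antiPDL1 replicate 2. The log2 differences were -0.02, 0.00058 (-0.07 after quantile normalization) and 0.21, with limma adjusted p of 0.976, 0.9996 and 0.461. The interval in the combination ran from -0.24 to 0.66. Activation of IRF3 is by phosphorylation, which RNA levels do not measure.

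The genes around the sensors were taken as 8 lists. With all 12 libraries, 0 genes of any list passed in limma in polyIC, in antiPDL1, or in the combination against either single treatment. Control replicate 2 and antiPDL1 replicate 2 were also left out together, after the data showed each closer to another group than to its own. Leaving out such libraries can by itself raise the number of calls, so the counts without them are a description. Without both, polyIC gave 1 relay factor that rose and 2 that fell, and 1 regulator in each direction. There 2 interferon-stimulated genes rose and 1 fell, and 2 eIF2alpha pathway genes fell, beside 23.7% of all genes called. Against polyIC, the combination then gave 0 to 2 that rose and 0 to 1 that fell per list (9.47%). Genes with an unadjusted p under 0.05 were counted with all 12 libraries. In polyIC they were 2 of 23 relay factors, 1 of 17 regulators, 1 of 10 DNA sensing genes and 2 of 24 interferon-stimulated genes. They were 1 of 19 effectors, 1 of 6 cell death partners and 0 of 7 interferon receptor and ISGF3 genes, beside 22.2% of all genes. In antiPDL1 the counts in the same order were 2, 3, 3, 5, 0, 0 and 1, beside 17% of all genes. In the combination against polyIC 0 to 4 genes per list had an unadjusted p under 0.05 (13.6% of all genes), and against antiPDL1 0 to 5 (14.4%). In the combination against control, where 29.4% of all genes were called, the lists gave calls in both directions. The part of the cell marker and Ptprc levels given above in the values of these lists was not tested. Of 23 factors that relay the signal from MAVS and TRIF, 2 rose and 1 fell, with a median of 0.13. Tank, a scaffold of the kinases that phosphorylate IRF3, rose from 27.5 ± 2.54 to 56.6 ± 9.33 FPKM (log2 1.01, adjusted p = 0.00767 in limma), and Ikbke, one of those kinases, from 7.94 ± 0.994 to 16.4 ± 1.92 (log2 0.96, adjusted p = 0.0131 in limma). Unc93b1, which carries TLR3 and other receptors to endosomes, fell from 409 ± 131 to 216 ± 50.4 (log2 -0.88, adjusted p = 0.0375 in limma). Tank passed in 12 of 12 runs with 1 library left out, Ikbke in 11 and Unc93b1 in 7.

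Of 17 tested regulators of the receptors (18 listed), 5 rose and 2 fell, with a median of 0.32. Tnfaip3 (A20), a brake on these pathways, rose from 15.6 ± 2.60 to 32.3 ± 1.27 FPKM (log2 1.02, adjusted p = 0.00683 in limma), and Rnf125, a ubiquitin ligase that marks RIG-I and MDA5 for degradation, from 5.19 ± 1.68 to 14.1 ± 3.23 (log2 1.31, adjusted p = 0.0186 in limma). Nlrc5 rose by 0.79 (log2, adjusted p = 0.0346 in limma). Tkfc, a metabolic kinase that also restrains MDA5, fell by 1.24 on the log2 scale (adjusted p = 0.00892 in limma). It was 19.7, 21.4 and 8.59 FPKM in control, where the hepatocyte marker sum was 2820, 2504 and 907. In the combination it was 6.98, 6.03 and 5.02, where that sum was 128, 213 and 243. The part of hepatocyte RNA in the Tkfc values was not tested. Without control replicate 2 and antiPDL1 replicate 2, 8 regulators rose and 4 fell in the combination, and 4 relay factors rose and 2 fell, where 42.9% of all genes were called. In antiPDL1, where 27.8% were then called (0.267% with all 12 libraries), the same omission gave 4 regulators that rose and 2 that fell. It also gave 3 relay factors and 6 DNA sensing genes that rose. The omission was chosen after the data were seen. Tnfaip3 and Tkfc passed in 12 of 12 runs with 1 library left out, Rnf125 in 10 and Nlrc5 in 7.

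Of 19 tested effectors that bind double-stranded RNA (20 listed), 2 rose and 0 fell (1 and 2 without both libraries), with a median of 0.18: the helicases Ddx21 (log2 0.54, adjusted p = 0.0322 in limma) and Dhx36 (0.42, adjusted p = 0.0404). Ddx21 passed in 8 of 12 runs with 1 library left out and Dhx36 in 4. The 10 genes of cytosolic DNA sensing had the highest median of the lists, 0.58, with 4 that rose and 0 that fell. Pycard (ASC), the inflammasome adaptor, rose from 39.9 ± 7.54 to 109 ± 26.2 FPKM (log2 1.42, adjusted p = 0.00896 in limma), Casp1, the inflammasome protease, by 0.98 (adjusted p = 0.0187), Tmem173 (STING), the adaptor of DNA sensing, by 0.77 (adjusted p = 0.0224) and Lrrfip1 by 0.59 (adjusted p = 0.0473). Pycard passed in 12 of 12 runs with 1 library left out, Casp1 in 9, Tmem173 in 8 and Lrrfip1 in 4.

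Interferon transcripts themselves were near the limit of the table. Of 19 interferon genes, 15 were listed at 0 in every library, and 4 were above 0 in at least 1 library. The highest value was 0.1701 FPKM, for Ifnb1, which was above 0 in 9 libraries, and none passed the filter for testing. The table gives no counts, so no limit of detection was set. Ifnar2, a chain of the type I interferon receptor, fell in the combination by 0.78 on the log2 scale (adjusted p = 0.0176 in limma). It passed in 8 of 12 runs with 1 library left out.

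Of 24 interferon-stimulated genes, 2 rose and 1 fell in the combination, with a median of 0.12. Isg20, an RNA exonuclease, rose by 1.44 (log2, adjusted p = 0.0301 in limma) and Dtx3l, a ubiquitin ligase, by 0.56 (adjusted p = 0.0250), while Bst2 (tetherin), also a marker of plasmacytoid dendritic cells, fell from 551.5 ± 65.2 to 247 ± 24.5 FPKM (log2 -1.15, adjusted p = 0.00931 in limma). The summed FPKM of the 5 other plasmacytoid dendritic cell markers was 263 to 620 in control and 52.2 to 157 in the combination, and its part in the fall of Bst2 was not tested. Bst2 passed in 12 of 12 runs with 1 library left out, Dtx3l in 8 and Isg20 in 7. Without control replicate 2 and antiPDL1 replicate 2, 6 of the 24 rose and 5 fell in the combination (42.9% of all genes called). In antiPDL1 12 rose and 0 fell (27.8%). With all 12 libraries these shares were 29.4% and 0.267%. Both libraries were left out after the data showed them closer to another group, which can by itself raise the calls.

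**Figure D5:**
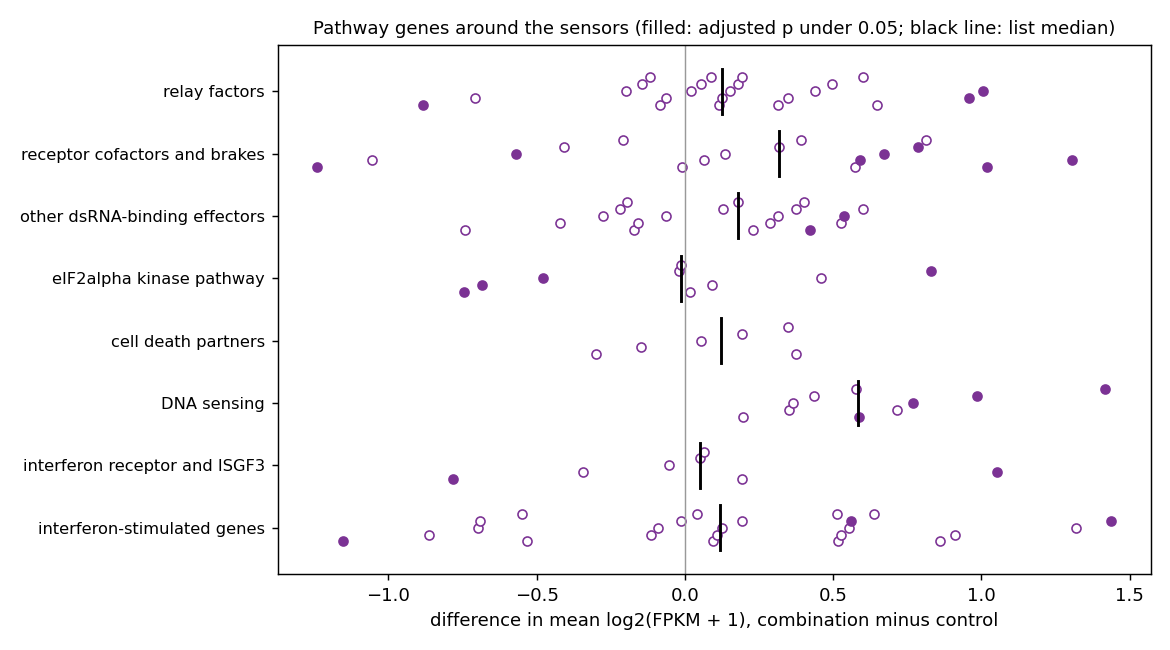
Difference in mean log2(FPKM + 1), combination minus control (x axis), of the genes tested in 8 lists around the sensors (y axis); points are genes, filled points have an adjusted p under 0.05 and black lines are list medians. DNA sensing has the highest median, 0.58, and cell death partners have 0 filled points.

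The levels of some sensors followed each other across the 12 libraries. Pearson correlations of log2(FPKM + 1) were 0.860 for Ifih1 and Dhx58, 0.832 for Dhx58 and Eif2ak2, 0.821 for Ifih1 and Zbp1, 0.757 for Dhx58 and Zbp1 and 0.756 for Ifih1 and Eif2ak2, while Ddx58 reached 0.402 with Dhx58 and 0.118 with Ifih1. The lowest value was -0.613, for Tlr3 and Irf3. These are descriptions over 12 libraries that share treatment groups and outlying libraries. Among all genes tested, the pattern of Zbp1 was most like those of Pomp (0.97997), Gbp5 (0.9796) and Pdss1 (0.979). Gbp5, a guanylate-binding protein, was 19.8, 25.9 and 20.7 FPKM in control, 30.01, 29.7 and 21.9 with polyIC, 91.0, 126 and 24.3 with antiPDL1, and 84.3, 80.6 and 71.9 in the combination. The genes most like Ifih1 were Phf11d (0.961), Gsap (0.953) and Parp12 (0.933), those most like Dhx58 were Ift22 (0.97985), Pik3r6 (0.958) and Pstpip2 (0.951), and those most like Eif2ak2 were Wsb1 (0.919), Ifitm3 (0.884) and Sfxn2 (0.882). Ddx58 was followed less closely, by Socs6 (0.873), Nhsl2 (0.831) and Asb2 (0.811). For Tlr3 they were Yipf6 (0.902), Mgat4a (0.886) and Pja2 (0.886), for Mavs Flcn (0.924), Ctns (0.922) and Adrb1 (0.918), for Ticam1 Sf3b4 (0.916), Ctdnep1 (0.913) and G6pc3 (0.898), and for Irf3 Brd7 (0.968), Trabd (0.966) and Arfgap1 (0.962).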

How the data were processed

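Poly(A) RNA of CD45-positive liver cells from 12 libraries was sequenced by the submitters, per the labels' protocols. Per the submitters' processing notes, Cuffdiff and the mm9 build were used; for the Cuffdiff version and the strand setting, the sources used here give nothing. The authors deposited 1 table of normalized values, read here as FPKM from that tool and from the column totals, with no counts. Of 24319 entries, 5460 were at 0 throughout. Entries at 0 in a whole group while every library of another group had at least 5 FPKM (22, taken as failed estimates) were left out, and a gene was tested if 3 or more libraries reached 1 FPKM (11978). Groups were compared with limma 3.58.1 (R 4.3.3, trend) on log2(FPKM + 1) over 12 libraries, with Benjamini-Hochberg adjustment over all genes tested and a threshold of 0.05. Fold changes on this scale understate those of low genes. The interaction is the polyIC effect with the antibody minus that without it. The script was tested on simulated data.

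The 9 genes and all lists were chosen with earlier results of these data known. Named were all 9 genes, the called genes of each list (the 4 largest log2 changes where more than 5 were called), the 3 genes most correlated with each of the 9, and cell markers; 1 called list gene is not reported here. Values named for Ripk3 and Mlkl, and those of Gbp5 by library, were chosen after they were seen. Relative depth is approximate, from 43 of 66 library pairs. Promoter sequences and motifs came from RefSeq and overlapping genes from a GRCm38 annotation, by name only. The alternatives were another pseudocount (0.1), other filters, quantile normalization, median-of-ratios rescaling, array quality weights, a fit limited to the groups compared, failed estimates kept, the replicate number as a block, and each library left out; leaving out control replicate 2 and antiPDL1 replicate 2 together was added after seeing the data.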

Additional observations from a re-analysis of the deposited data

How the results depend on the processing

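The number of the 9 genes called in the combination against control (1) was 2 after quantile normalization, median-of-ratios rescaling or with control replicate 2 and antiPDL1 replicate 2 left out together, and 3 with array quality weights, where 30.5%, 33.5%, 42.9% and 57.4% of all genes were called; leaving out 1 library gave 0 to 2. Mavs was the added gene in these, with Tlr3 under the weights. For antiPDL1 the count (0) was 2 with the weights or without both libraries (21.7% and 27.8% of all genes called), and 0 to 2 with 1 library left out. For the combination against polyIC the count (0) was 1 in the fit of only the groups compared, with the weights or without both libraries (11.3%, 30.6% and 9.47% of all genes called), and 0 to 1 with 1 library left out. For polyIC alone, the combination against antiPDL1 and the interaction it was 0 under every alternative run. The library antiPDL1 replicate 0, which was closer to the combination than to its own group, was kept when both other libraries were left out, so that its group had 2 libraries. A group left with 2 libraries shares the spread of the others.

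No clear pairing of libraries by replicate number was seen. Over 18 pairs with the same number, deviations from the group means correlated at -0.29 to 0.32, and 4 pairs exceeded 0.1. Of 12 libraries, 5 were closest to those of their own number. With 3 libraries per group, some of them unlike their own group, this check cannot settle whether libraries were paired. With the replicate block, 2 of the 9 genes were called in the combination against control, Zbp1 (adjusted p = 0.0189 in limma) and Mavs (-0.70, adjusted p = 0.0368), and the calls over all genes in the combination against polyIC went from 149 to 2.

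Log2 differences that did not pass changed sign under some alternatives, and the cause was not tested. With 1 library left out, Ddx58 ranged from -0.10 to 0.036 in polyIC, -0.11 to 0.13 in antiPDL1, -0.21 to 0.011 in the combination, -0.17 to 0.052 against polyIC, -0.25 to 0.020 against antiPDL1 and -0.21 to 0.061 in the interaction. Dhx58 ranged from -0.54 to 0.026 in polyIC, -0.19 to 0.37 in the combination, -0.73 to 0.087 against antiPDL1 and -0.56 to 0.26 in the interaction. Eif2ak2 ranged from -0.31 to 0.033 in polyIC, -0.22 to 0.12 in the combination and -0.034 to 0.22 against polyIC, and Ifih1 from -0.11 to 0.36 in polyIC. Irf3 ranged from -0.11 to 0.061 in polyIC, -0.11 to 0.22 in antiPDL1, -0.017 to 0.35 in the combination against antiPDL1 and -0.00043 to 0.37 in the interaction. Mavs ranged from -0.41 to 0.017 in the combination against polyIC and -0.13 to 0.30 in the interaction, and Ticam1 from -0.19 to 0.17 in the combination, -0.026 to 0.34 against polyIC and -0.21 to 0.15 in the interaction. Tlr3 ranged from -0.40 to 0.20 in antiPDL1 and -0.59 to 0.079 in the interaction, and Zbp1 from -0.56 to 0.71 in the combination against antiPDL1 and -0.98 to 0.28 in the interaction. Quantile normalization gave -0.029 for Ddx58 and -0.073 for Irf3 in antiPDL1 and 0.0093 for Ticam1 in the combination. Irf3 in antiPDL1 was -0.021 after median-of-ratios rescaling and -0.00042 with a pseudocount of 0.1. The weights gave -0.033 for Dhx58 and 0.027 for Ticam1 in the combination and -0.17 for Zbp1 against antiPDL1. Without both libraries, Dhx58 was -0.19 in the combination, Ifih1 -0.11 and Irf3 0.012 in polyIC, Irf3 -0.017 and Zbp1 -0.56 in the combination against antiPDL1, and Irf3 -0.029 and Tlr3 0.050 in the interaction. Counts over all genes moved more: polyIC alone gave 435 calls, 39 to 1849 with 1 library left out (without polyIC replicate 0 and control replicate 2) and 3437 with the weights, antiPDL1 alone gave 32 calls, 2089 without its replicate 2 and 2594 with the weights, and the combination gave 3524 and 6881 with the weights.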
